A study of Mus musculus with 2 samples.

Results

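The genes described here are 10 genes of the embryonic stem (ES) cell state, measured on 1 array from control mouse ES cells and 1 array from ES cells titled Dnmt1 KO. They are the core pluripotency factors Pou5f1, Sox2, Sall4, Utf1 and Lin28a, the F-box gene Fbxo15, and the developmental pluripotency-associated genes Dppa2, Dppa3, Dppa4 and Dppa5a. They were chosen by name, and all 15 of their probe sets with that single gene symbol in the platform annotation were used, out of 18193 genes with such a probe set. All 10 genes were well above the low-signal floor on both arrays.

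Dnmt1 is the enzyme that copies CpG methylation onto the new DNA strand after replication. The study was designed to give a knockout (KO) reference for other work on ES cell differentiation. Both cultures were mouse ES cells, and the source name of both samples describes a control, so only the title marks the KO array. The knockout allele, parental line, strain, clone, passage and use of feeder cells are not stated in those labels. The brightest Dnmt1 probe set read 1949.1 in the control and 262.1 in the KO, 9.99-fold lower relative to the general shift described below, in the direction of the title.

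Pou5f1 (Oct4) and Sox2 bind DNA side by side and hold ES cells in the pluripotent state. Sall4 is a zinc finger factor that works with them, and Utf1 is a chromatin-associated protein of undifferentiated cells. Lin28a is an RNA-binding protein that blocks maturation of let-7 microRNAs. Fbxo15, a substrate adaptor of the SCF ubiquitin ligase, is a known target of Pou5f1 and Sox2. Dppa2 and Dppa4 are SAP-domain proteins that bind each other and help keep CpG-rich promoters free of methylation. Dppa3 (Stella) is a maternal factor that counters Uhrf1, the protein that brings Dnmt1 to replicated DNA. Dppa5a (Esg1) is a KH-domain RNA-binding protein.

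RefSeq promoter windows, from 250 bases before to 50 bases after a transcription start, were at hand for 4 of the genes. They are shown because the CpG, in capitals, is the site whose methylation Dnmt1 maintains. All are in assembly GRCm38.p6, 5′ to 3′, on the strand named. The Pou5f1 window is chr17:35505782-35506081 on the plus strand, the first of 2 listed starts. The Sox2 window is chr3:34649745-34650044, plus strand. The Utf1 window is chr7:139943606-139943905, plus strand. The Lin28a window is chr4:134018767-134019066, minus strand.
Pou5f1: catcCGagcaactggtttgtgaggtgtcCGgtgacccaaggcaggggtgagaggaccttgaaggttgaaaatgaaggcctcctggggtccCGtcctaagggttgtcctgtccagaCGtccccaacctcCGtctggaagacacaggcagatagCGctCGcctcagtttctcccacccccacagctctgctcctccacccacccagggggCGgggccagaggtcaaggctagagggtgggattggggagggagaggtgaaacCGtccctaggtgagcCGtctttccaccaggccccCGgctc
Sox2: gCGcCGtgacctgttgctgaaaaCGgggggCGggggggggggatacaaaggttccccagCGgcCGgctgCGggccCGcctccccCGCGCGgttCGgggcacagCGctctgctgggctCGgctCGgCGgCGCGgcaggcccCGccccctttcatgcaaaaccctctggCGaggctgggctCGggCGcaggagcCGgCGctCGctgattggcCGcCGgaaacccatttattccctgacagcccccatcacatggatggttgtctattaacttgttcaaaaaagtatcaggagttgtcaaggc
Utf1: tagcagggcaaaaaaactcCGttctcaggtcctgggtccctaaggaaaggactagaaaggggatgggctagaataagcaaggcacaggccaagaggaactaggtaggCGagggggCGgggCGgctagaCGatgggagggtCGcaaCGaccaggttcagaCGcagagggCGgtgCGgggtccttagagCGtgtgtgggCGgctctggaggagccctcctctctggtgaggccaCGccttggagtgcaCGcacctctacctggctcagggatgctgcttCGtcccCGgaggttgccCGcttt
Lin28a: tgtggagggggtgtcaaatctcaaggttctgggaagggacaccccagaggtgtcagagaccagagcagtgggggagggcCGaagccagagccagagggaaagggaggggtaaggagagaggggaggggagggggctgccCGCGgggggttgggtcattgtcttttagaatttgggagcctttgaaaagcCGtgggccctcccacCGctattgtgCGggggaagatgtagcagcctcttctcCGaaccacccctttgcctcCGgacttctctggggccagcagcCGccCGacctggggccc

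The Sox2 window held 27 CpGs, and 15.5% of the 32851 promoter windows in the table held at least as many. Utf1 had 17 CpGs (31.4% of windows had as many or more), Pou5f1 11 (41.4%) and Lin28a 10 (43.5%), against a median of 7. The octamer ATGCAAAT, the consensus for Pou5f1, was in none of the 4 windows on either strand and in 1.74% of all windows. The Sox core ACAAAG was in the Sox2 window alone among the 4, and in 18.7% of all windows (either strand). DNA methylation was not measured, so these counts describe sequence only.

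Signals are MAS5 intensities on a linear scale, 1 value per probe set and array. Values under the median probe set of their array (60.9 for the control, 74.2 for the KO) were treated as at the floor. The KO array was brighter in general. Its median gene, among those over the floor in both samples, was 1.34-fold brighter, a log2 ratio of 0.43, and this shift was taken off each ratio unless a value is called as deposited. With 1 array per group there was no test between groups, no p-value and no replicate error. As a technical scale, probe sets of the same gene differed in log2 ratio with a pooled SD of 0.24 (4704 genes), which covers neither culture nor array differences.

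None of the 10 genes differed at least 2-fold between the arrays relative to the shift. Across all 12226 genes above the floor on at least 1 array, 1.09% were higher by 2-fold or more in the KO and 0.532% lower by as much. The log2 ratios of the 10 genes ran from -0.62 (Utf1) to 0.69 (Dppa3), with a median of -0.13, beside -0.0049 over all those genes. In total, 8 genes lay below the shift and 2, Dppa3 and Fbxo15, above it. At a 1.5-fold threshold the same 2 genes counted as higher and Utf1 as lower, where 4.74% and 4.25% of all genes did. As deposited, 9 of the 10 were brighter on the KO array, as were 91.4% of genes over both floors. Without taking off the shift, Dppa3 and Fbxo15 passed 2-fold upward and no gene of the 10 passed it downward, against 4.92% and 0.0982% of all genes.

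**Figure D1:**
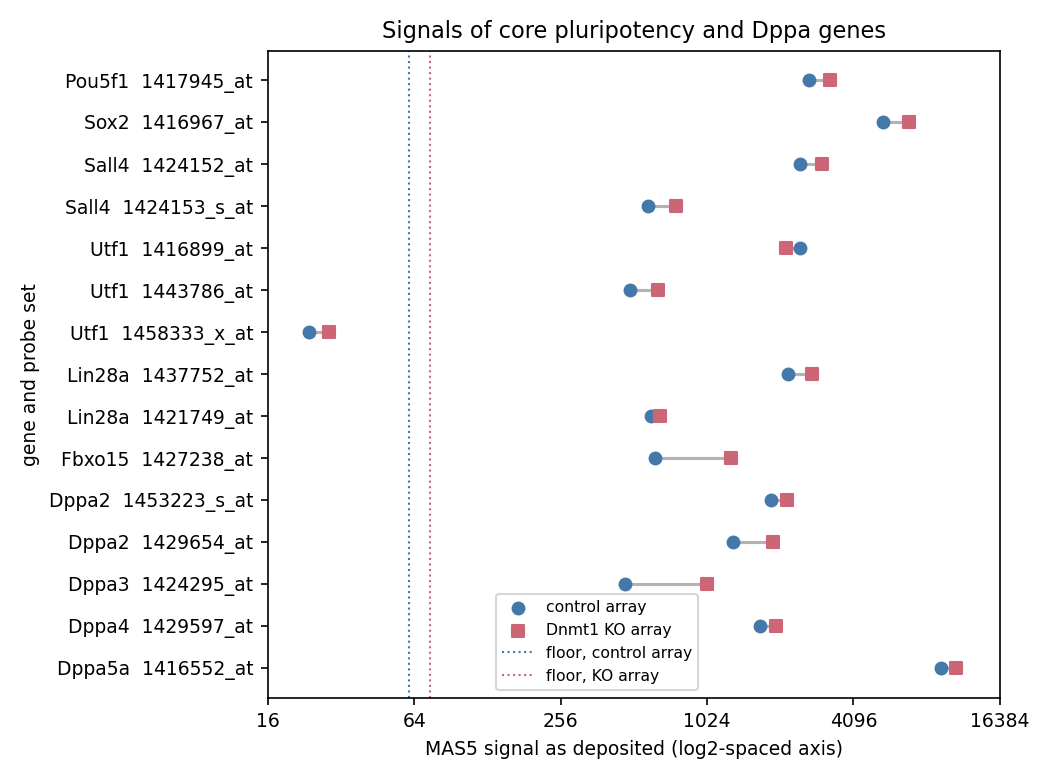
MAS5 signal (log-spaced axis) of each of the 15 probe sets on the control array (circles) and the KO array (squares), with each array's floor as a dotted line. The widest gaps are those of Dppa3 (471.2 to 1023.3) and Fbxo15 (628.8 to 1285.8), 1 Utf1 probe set is dimmer on the KO array, and another lies below both floors.

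The core transcription factors kept nearly the same place relative to the other genes on both arrays. Pou5f1 read 2689.7 in the control and 3297.0 in the KO, a log2 ratio of 0.29 as deposited and -0.13 relative to the shift. Sox2 gave 5436.6 and 6962.0 (0.36 as deposited, -0.07 relative to the shift). The brighter Sall4 probe set gave 2462.8 and 3043.1 (0.31 and -0.12). All 3 genes were thus brighter on the KO array but slightly less so than the median gene, by amounts smaller than the SD between probe sets. The other Sall4 probe set, of the _s_at kind whose probes match several transcripts, gave 583.2 and 760.4 and a log2 ratio of -0.04. The RefSeq table lists 7 pseudogenes related to Pou5f1, 1 for Dppa3 and 2 for Dppa5, so related copies could contribute to those 3 signals.

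Any constant scaling of the arrays cancels when these genes are set against each other. Relative to Pou5f1, the log2 ratio of Sox2 was 0.06 higher, that of Sall4 0.01 higher and that of Lin28a 0.04 higher. On the same scale Dppa3 was 0.83 higher (1.77-fold), Fbxo15 0.74 higher (1.67-fold), and Utf1 -0.49, which is 1.40-fold lower. The whole range, from Utf1 to Dppa3, was 1.31 on the log2 scale.

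Utf1 was the lowest of the 10, but its probe sets disagreed. The brightest gave 2460.9 in the control and 2154.9 in the KO, the only probe set of the 15 with a lower deposited signal on the KO array. Its log2 ratio was -0.19 as deposited and -0.62 relative to the shift, 1.53-fold lower. A dimmer probe set gave 492.5 and 643.9, a log2 ratio of -0.04 relative to the shift. The third, of the _x_at kind that can cross-hybridise, was below the floor on both arrays (23.6 and 28.7) and has no ratio. The mean of the measured pair was -0.33 ± 0.41 (SD between 2 probe sets). Of the genes with at least 2 measured probe sets, 15.3% had a spread at least as wide as the 0.58 between these.

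Lin28a was brighter on the KO array by less than the median gene on both of its probe sets. They gave 2199.1 and 2769.9 (log2 ratio -0.09) and 601.6 and 654.2 (-0.30), with a mean of -0.20 ± 0.15 (SD between 2 probe sets). Its paralog Lin28b was below the floor on both arrays (25.1 and 25.8). Of 12 measured genes of microRNA processing and other Lin28 partners and let-7 targets, none was 2-fold different, 9 lay below the shift and 3 above, with a median of -0.12. By their brightest probe sets, the members of that list farthest from the shift were Drosha, the nuclear microRNA processing enzyme (1299.8 and 1362.0, -0.36), and Igf2bp1, an RNA-binding let-7 target (2823.5 and 2963.2, -0.36). The probe sets of Drosha averaged -0.24 ± 0.11 (SD, 3 probe sets) and those of Igf2bp1 -0.28 ± 0.08 (4). Hmga2, named after its values were seen, had -0.31 by its brightest probe set but averaged -0.66 ± 0.47 (3). Dicer1, which cuts microRNA precursors, gave 367.9 and 621.0 (0.33), but its 2 probe sets averaged 0.10 ± 0.33 (SD). Dgcr8, the partner of Drosha, gave 433.8 and 725.6 (0.32).

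Fbxo15 was the second highest of the 10. Its single probe set gave 628.8 in the control and 1285.8 in the KO, 2.04-fold higher as deposited and 1.52-fold higher relative to the shift (log2 ratio 0.61). Of 6 measured genes of SCF ligases and related partners, 3 lay above and 3 below the shift and none was 2-fold different, with a median of 0.07. The ones farthest from the shift were the substrate adaptors Btrc (205.5 and 388.7, log2 ratio 0.49), Skp2 (872.4 and 925.6, -0.34) and Fbxw7 (291.4 and 470.8, 0.27), and the scaffold Cul1 (409.7 and 474.8, -0.21). The 3 probe sets of Btrc averaged 0.20 ± 0.25 (SD).

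Dppa3 had the highest ratio of the 10. Its single probe set gave 471.2 and 1023.3, 2.17-fold higher on the KO array as deposited and 1.62-fold higher relative to the shift (log2 ratio 0.69, or 2.86 times the SD between probe sets). With only 1 probe set each, the ratios of Dppa3 and Fbxo15 have no second measurement on these arrays. Of 6 measured genes linked to Dppa3 function, 5 lay below the shift, 1 above, and none was 2-fold different, with a median of -0.13. Hells, a chromatin remodeller needed for DNA methylation, gave 2591.0 and 2953.8 (-0.24), the importin Ipo5 3445.6 and 4091.7 (-0.18), the corepressor Trim28 6964.9 and 8433.4 (-0.15) and Zfp57, which guards imprints, 484.4 and 598.4 (-0.12). Uhrf1, named after its value was seen, gave 2366.6 and 3372.3 (0.09). The probe sets of Hells averaged -0.41 ± 0.26 (SD, 3 probe sets) and those of Uhrf1 0.20 ± 0.16 (2). Those of Ipo5 averaged -0.08 ± 0.13 (2) and those of Trim28 -0.10 ± 0.07 (2).

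Dppa2 and Dppa4, which are adjacent genes on chromosome 16, had almost equal ratios by their brightest probe sets. Dppa4 gave 1685.1 and 1973.4 (log2 ratio -0.20). The brightest Dppa2 probe set, of the _s_at kind, gave 1876.9 and 2190.3 (-0.20), and the log2 ratios of the pair differed by 0.01. The other Dppa2 probe set gave 1312.5 and 1910.4 and lay on the other side of the shift (0.12), so that the mean for Dppa2 was -0.04 ± 0.23 (SD between 2 probe sets).

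A list of 18 genes of the 2-cell-like state and the germline was set beside Dppa2 and Dppa4, which are known to be needed for Zscan4 and Dux activity and for genes such as Syce1. The listed Zscan4 genes (Zscan4c, Zscan4d and Zscan4f) had no single-gene probe set, so Zscan4 was not read. Of the 7 listed genes measured, 5 lay above the shift and 2 below. In the KO direction 2 exceeded 2-fold and in the other 0 (5 and 0 before the shift was taken off). Among all genes, 1.09% were higher by 2-fold or more (4.92% before the shift was taken off). The list median was 0.86. Usp17la, a deubiquitinase of a multigene family, gave 96.7 and 573.6 (log2 ratio 2.14) and Syce1, a synaptonemal complex gene, 133.6 and 463.7 (1.37). Mael, a germ-cell gene of transposon silencing, gave 314.2 and 802.2 (0.93), and the arginase Arg2 was above the floor on the KO array only (58.0 and 148.7, at least 0.86, or 0.40 as the mean over probe sets). With the floor at the 75th percentile of each array, Syce1 fell under 2-fold (0.77) and Usp17la had 1.07. The 2 below the shift, named after their values were seen, were Sp110 (84.4 and 104.8, -0.11) and Nkx2-5 (73.2 and 92.3, -0.09). Neither array put Duxf3, Tcstv1, Tcstv3 or Tdpoz1 over its floor. Dppa2 and Dppa4 lay just below the shift by their brightest probe sets, and any link between them and the genes on this list was not tested.

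Dppa5a gave signals of 9428.1 and 10844.9, a log2 ratio of 0.20 as deposited and -0.22 relative to the shift. Ooep and Khdc3, related KH-domain genes of the oocyte that also lie on chromosome 9, differed from it and from each other. Ooep gave 636.2 and 607.4 (-0.49), while Khdc3 went from 67.7, just above the floor, to 754.2 (3.05, or 1.47 with the floor at the 75th percentile). Of 12 measured paralogs of the 10 genes in all, only Khdc3 exceeded 2-fold upward and 0 did so downward (2 and 0 before the shift was taken off). Among all genes, 1.09% did so upward and 0.532% downward (4.92% and 0.0982% before the shift was taken off). The Sall4 paralog Sall1 gave 1195.1 and 846.7 (-0.92), with 2 probe sets averaging -0.94 ± 0.02 (SD). Sall1 lies on chromosome 8, whose 602 genes over both floors had a median of -0.37, while none of the 10 genes does. Sox21, a relative of Sox2, gave 114.2 and 229.5 (0.58).

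Ratios depended weakly on signal, with the brightest genes lying lower. Each gene was therefore set beside the genes whose mean log2 signal was within 0.5 of its own (63 to 2075 genes over both floors). The 63 genes around Dppa5a had a median ratio of -0.19, next to its own -0.22, and the 128 around Sox2 had -0.11, next to -0.07. Apart from Utf1, Dppa3 and Fbxo15, the 7 genes differed from the median of their neighbours in signal by between -0.21 and 0.04. Of the 612 genes near Utf1 in signal, 1.47% had a ratio as low, and of the 2075 near Dppa3, 2.02% had one as high. For Fbxo15 the share was 1.98% of 1721 genes. These shares describe the 2 arrays and are not tests.

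**Figure D2:**
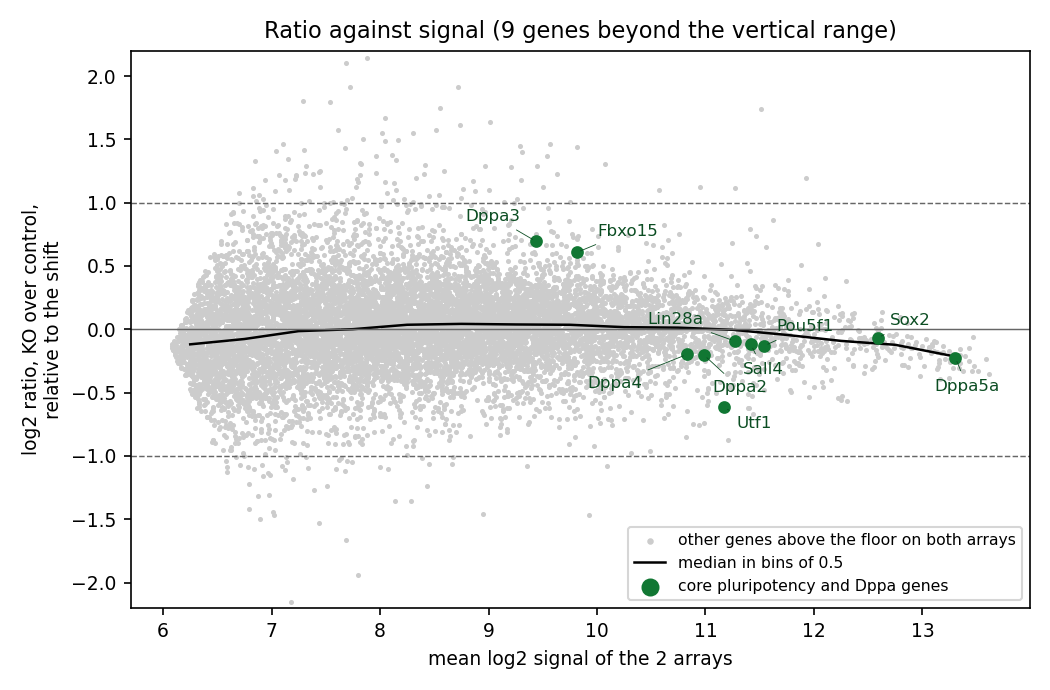
Log2 ratio of KO over control, relative to the shift, against mean log2 signal, for genes above the floor on both arrays (grey), with the median in bins of 0.5 as a black line and the 2-fold limits dashed. Dppa3 (0.69) and Fbxo15 (0.61) lie above the line and Utf1 (-0.62) below it, while the other 7 lie close to it.

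Other genes of the pluripotency network were compared from a list of 39, of which 35 were measured. Of these, 19 lay above the shift and 16 below, and the list median was 0.01. In 5 (14.3%) the KO signal was higher by 2-fold or more and in 0 lower by as much (5 and 0 also before the shift was taken off). Among all genes the shares were 1.09% and 0.532% (4.92% and 0.0982% before the shift was taken off). The 5 were the transcription factors Klf4 (187.1 and 947.8, log2 ratio 1.92), Nr0b1 (147.8 and 560.2, 2.82-fold higher), Nanog (592.5 and 1965.5, 1.30), Tfap2c (446.3 and 1405.5, 1.23) and Esrrb (361.8 and 1098.1, 1.18). The probe sets of Esrrb averaged 0.84 ± 0.40 (SD, 3 probe sets), under the 2-fold threshold, those of Klf4 1.61 ± 0.43 (2) and those of Tfap2c 1.12 ± 0.12 (3). Set against Pou5f1, so that a constant scaling cancels, Klf4 was 2.05 higher and Nanog 1.44 higher on the log2 scale. Dppa3 and Fbxo15 lay between these 5 and the core factors. The list was put together with these results known, so the contrast is a description.

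**Figure D3:**
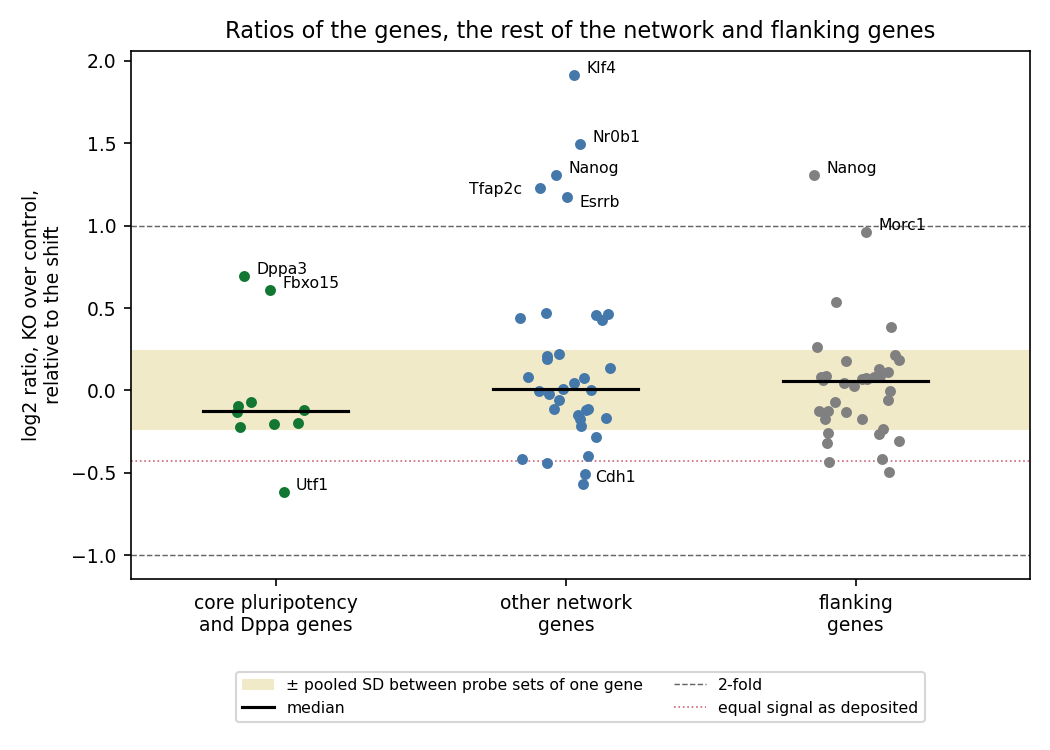
Log2 ratios of KO over control, relative to the shift, for the 10 genes, 35 other network genes and 36 flanking genes (Nanog and Gdf3 are in both of these sets), each point 1 gene by its brightest probe set and the bar the median. The band is the pooled SD between probe sets of one gene (0.24), and 7 of the 10 genes lie inside it, whereas Klf4, Nr0b1, Nanog, Tfap2c and Esrrb lie above the upper 2-fold line.

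Each gene was also set beside its 2 nearest measured protein-coding genes on either side, 36 genes in all that are not among the 10. Only Nanog exceeded 2-fold upward and 0 did so downward, beside 1.09% and 0.532% of all genes. Of the 36, 20 lay above the shift and 16 below, and the median was 0.05. Around Dppa3 on chromosome 6, the ratios did not move as a block. Nanog, the next such gene on one side, had 1.30 and Slc2a3, a glucose transporter beyond it, 0.05 (5098.5 and 7077.4). On the other side the growth factor gene Gdf3 had -0.41 (402.7 and 406.1) and the RNA-editing deaminase Apobec1 -0.23 (164.3 and 187.6), so that Dppa3 and the adjacent Gdf3 differed by 1.11.

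Beside Dppa2 and Dppa4, Morc1, a male germ-cell gene, gave 393.8 and 1028.7, 1.95-fold higher relative to the shift (0.96) and just under the threshold. On the other side Nectin3, a cell adhesion gene, had 0.07 (834.7 and 1174.9). Beside Fbxo15 on chromosome 18, all 4 flanking genes lay below the shift by their brightest probe sets. They ran from -0.31 (Neto1, 115.6 and 125.3) to -0.06 (Cndp2, 785.3 and 1014.4), with Cyb5a and Timm21 at -0.12 and -0.18. The side on which Cndp2 lay depended on the choice of probe set (SD 0.28 over 2 probe sets). Cndp2 had 0.18 as the mean over probe sets, and it also lay above the shift without probe sets of the _s, _x or _a kind. Beside Utf1 the flanking genes ran from -0.26 (Adam8, 154.5 and 173.6) to 0.18 (Kndc1, 123.8 and 188.3). Around Pou5f1, Tcf19 gave 394.8 and 486.7 (-0.12). The probe sets of some other flanking genes disagreed. The brightest of the class I histocompatibility gene H2-D1, also near Pou5f1, had 0.39 (SD 0.41 over 4 probe sets), but the gene had -0.23 without probe sets of the _s, _x or _a kind. Atp9a, near Sall4, had 0.53 (SD 0.68 over 3) and -0.11 without those kinds. Dcun1d1, near Sox2, had 0.08 (SD 0.44 over 3) and -0.70 without those kinds. Cilk1, near Dppa5a, had -0.44 (SD 0.29 over 3) and -0.08 as the mean over probe sets.

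**Figure D4:**
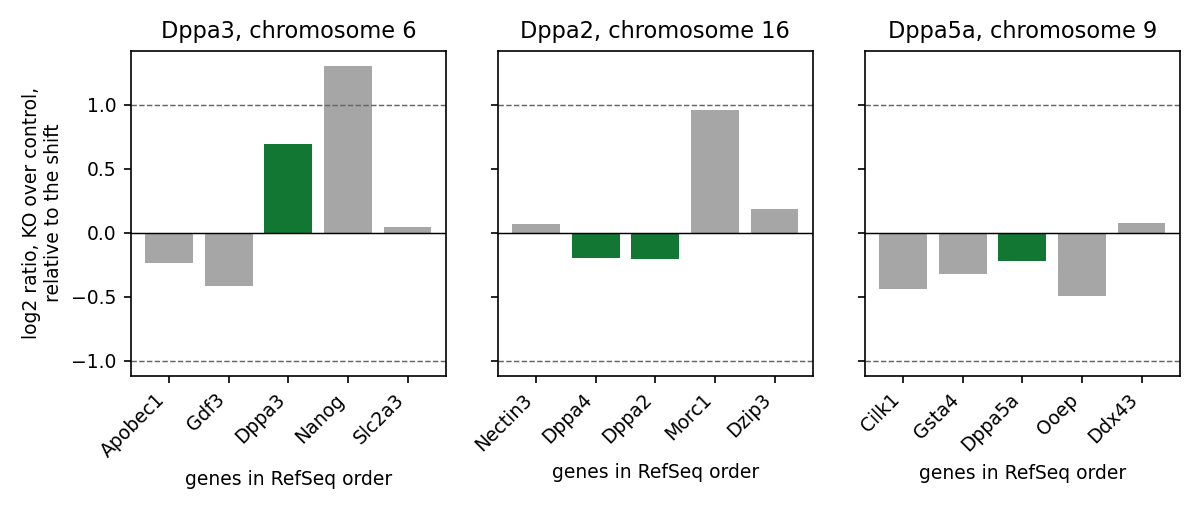
Log2 ratio of KO over control, relative to the shift, for Dppa3, Dppa2 with Dppa4, and Dppa5a (green bars) and their nearest measured protein-coding genes (grey bars) in RefSeq order, with the 2-fold limits dashed. Nanog (1.30) beside Dppa3 and Morc1 (0.96) beside Dppa2 are higher than the genes they flank, and Gdf3 (-0.41) is on the other side of the shift from Dppa3.

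Markers of other cell types were compared as lists, and none of the genes on them was at 0 on either array. Fibroblast markers, which feeder cells would carry, had 10 of 16 measured, 1 of them 2-fold lower (Tagln, 707.9 and 345.9) and none higher, and their signals summed to 5665.7 and 7314.8. Among all genes, 0.532% were lower by 2-fold or more. Of the 10 fibroblast markers, 5 lay above and 5 below the shift, with a median of 0.05. The defining collagen Col1a1 was near the floor (94.3 and 80.2, -0.66, and -0.43 ± 0.33 as the mean and SD of 2 probe sets). The filament gene Vim (1016.1 and 1986.0, 0.54) and the collagen Col5a1 (167.0 and 289.0, 0.37) lay on the other side, as did Thy1 (340.0 and 549.8, 0.27), while the collagen Col1a2 had -0.28 (172.9 and 190.9), these last 2 named after their values were seen. By their brightest probe sets, the 6 measured neuroectoderm markers of 9 all lay below the shift, with a median of -0.51 (-0.09 as deposited). Their signals summed to 2055.1 and 1841.6. Six3 (-0.85) was above the floor in the control only (99.9 and 72.2). As the mean over probe sets, Six3 had -0.34 and Pax6 -0.18 (-0.52 by its brightest), while Sox11 had -0.63 and Nes -0.58. Trophoblast markers had 9 of 11 measured, 7 above the shift and 2 below, with a median of 0.42 and sums of 2967.7 and 5547.5. Of the 9, 3 were at least 2-fold higher (Tfap2c, Krt7 and Plac1), beside 1.09% of all genes. Krt7 was above the floor on the KO array only (58.2 and 184.5), and the control signal of Plac1 was near the floor (73.2 and 200.9). Tfap2c is also on the network list. The 2 below the shift were Cdx2, above the floor in the control only (70.7 and 54.1, at most -0.36), and Eomes (161.0 and 179.1, -0.27). Elf5 (25.5 and 26.7) and Gata3 (3.7 and 6.7) were below the floor on both arrays. Cdx2, Eomes, Elf5 and Gata3 were named after their values were seen. Epiblast, primitive endoderm and mesoderm lists held no gene 2-fold different and had medians of -0.10 (8 measured), 0.10 (9) and -0.23 (5). Their part in the ratios of the 10 genes was not tested, and on bulk RNA fewer cells of a type and less RNA per cell cannot be told apart.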

How the data were processed

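Total RNA of each culture was labelled with biotin after a single cycle of amplification and hybridised to an Affymetrix mouse array, per the labels' protocols. The deposited intensity values are MAS5 signals, per the submitters' processing notes. The target intensity and any scaling or detection call are not stated there. Of 45101 probe sets, 64 Affymetrix controls were left out and 34945 had a single gene symbol, of which 34741 were matched by gene identifier to RefSeq (GRCm38.p6) for names and gene order. Signals were raised to the floor (the array's 50th percentile) and put on the log2 scale, the brightest probe set stood for its gene, and the median log2 ratio of the 10995 genes over both floors was taken off. Python 3.11.15, numpy 2.4.6, pandas 2.3.3 and statsmodels 0.14.6 were used, and the procedure was tested on simulated data. The number of arrays limits the precision.

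All 10 genes were named. From each list of network genes, paralogs, partners and markers, those at least 2-fold different and the 4 farthest from the shift could be named, and for each gene the 2 nearest measured protein-coding genes per side. With 2 arrays, no likeness between expression patterns was ranked. The genes and lists were chosen with earlier results of these data known. Alternatives covered scaling, floor, probe set choice, threshold and the genes that set the shift.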

Additional observations from a re-analysis of the deposited data

How the results depend on the processing

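The scaling decided the direction for most of the 10 genes. As deposited, 2 of them were at least 2-fold higher and their median was 0.30, and the network median was 0.43. At a 1.5-fold threshold 2 of the 10 were higher and 1 lower, and at a 3-fold threshold 1 network gene was higher. The count of network genes 2-fold higher fell from 5 to 4 with the mean over probe sets, where Esrrb had 0.88, and was 6 with the floor at the 25th percentile or with none. With the floor at the 75th percentile, Khdc3 had 1.47, Usp17la 1.07, the network gene Nr0b1 1.04 and Syce1 0.77, since their control signals were then raised to the floor. Under quantile normalization, lowess, an equal trimmed mean, other floors, other choices of probe set and a shift without chromosome 8, none of the 10 was 2-fold different and their median stayed between -0.14 and -0.07. Dppa3 kept a log2 ratio of 0.66 to 1.12 and Fbxo15 of 0.58 to 1.03 over 10 alternatives, and Utf1 was below 0 in each (-0.64 to -0.19). Dppa3, Fbxo15 and Utf1 stayed the highest, second highest and lowest in every one of them, and with the mean over probe sets the range fell from 1.31 to 0.96. Leaving chromosome 8 genes out of the network list, chosen after seeing the data, gave 5 higher, 0 lower and a median of 0.06. No paired analysis was possible because each group had 1 array, which also left no replicate to leave out.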
